A study of Mus musculus with 6 samples.

Results

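The genes described here are 7 intermediate filament genes of the mouse lens arrays: Bfsp1, Bfsp2, Vim, Nes, Synm, Des and Gfap, of 16504 named genes measured. They were chosen by name, as every probe annotated with one of these symbols, and all 7 were found, on 8 probes. Synm had 2 probes and each other gene 1. The 6 two-colour arrays each carried RNA of mature and of elongating lens fiber cells. Mature fibers were in channel 1 on arrays lens249, lens487 and lens493, and elongating fibers were in channel 1 on arrays lens250, lens488 and lens455. All cells came from mice of the transgenic strain TgN(GFPU)5Nagy, which expresses GFP, and the cells were cut by laser from sections 5 µm thick. For arrays lens249 and lens250 the labels add that lenses of littermates at postnatal day 5 were pooled, with at least 200 cells per zone. For the other 4 arrays the labels give no age. No label says which arrays came from separate animals or RNA extracts, so p-values measure the spread between arrays, which may be technical, and may be too small.

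Intermediate filaments are rope-like polymers of the cytoskeleton, built from proteins that share a central coiled-coil rod. Vimentin, encoded by Vim, is the filament of lens epithelium and of younger fiber cells. Fiber cells also build the beaded filament, a structure known from the lens, from filensin (Bfsp1) and phakinin, also called CP49 (Bfsp2), which assemble together. Mutations of either beaded filament gene are known to cause cataract in humans, and some inbred mouse strains carry an inactivating deletion in Bfsp2. The labels do not give the genetic background of the strain beyond its name, and the Bfsp2 genotype was not analysed here.

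Each value below is a log ratio of the 2 zones on 1 array, in the deposited log units. With log base and numerator not given in the sources used here, neither the level of a gene nor the zone where it was higher can be read. The sign was turned on the 3 arrays that had elongating fibers in channel 1, and every array was centred on its median. With channel 1 as the numerator, a positive value would mean more RNA in mature fibers, and with channel 2 less. The positive side is that of Dnase2b, the nuclease that removes fiber cell DNA, at 1.81 ± 0.30 (SD, n = 6), and the negative side that of Cdh2, N-cadherin, at -1.78 ± 0.54 (SD, n = 6). In these RNA pools a difference in the make-up of the captured cells and a difference in RNA per cell cannot be told apart.

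The promoters of the 3 genes that the comparison turns on are printed first, because Bfsp2, Bfsp1 and Vim lay in one order on every array, as described below. Each run gives the 250 bases before the start of the gene in RefSeq, build GRCm38.p6, and capitals mark matches to the short motifs named after it. Bfsp2 lies at chr9:103449177-103449426 on the minus strand, Bfsp1 at chr2:143863174-143863423 on the minus strand and Vim at chr2:13574061-13574310 on the plus strand.
Bfsp2: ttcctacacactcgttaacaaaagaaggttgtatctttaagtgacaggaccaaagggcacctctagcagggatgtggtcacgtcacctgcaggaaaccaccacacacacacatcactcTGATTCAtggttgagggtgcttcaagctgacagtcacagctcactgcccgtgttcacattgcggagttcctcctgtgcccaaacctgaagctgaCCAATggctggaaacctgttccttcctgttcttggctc
Bfsp1: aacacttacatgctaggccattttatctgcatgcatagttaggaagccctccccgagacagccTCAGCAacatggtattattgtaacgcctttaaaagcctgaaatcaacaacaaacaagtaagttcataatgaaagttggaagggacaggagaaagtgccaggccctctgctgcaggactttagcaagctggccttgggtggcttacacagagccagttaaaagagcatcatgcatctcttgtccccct
Vim: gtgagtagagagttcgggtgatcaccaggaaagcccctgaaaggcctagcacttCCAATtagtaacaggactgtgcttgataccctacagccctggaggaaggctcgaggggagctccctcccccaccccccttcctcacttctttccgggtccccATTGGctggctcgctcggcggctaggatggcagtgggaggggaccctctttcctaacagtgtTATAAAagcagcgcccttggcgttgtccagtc

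Motifs of 5 kinds were searched on both strands: the TATA box with the letters TATAAA, the CCAAT box, the GC box with the letters GGGCGG, the element of AP-1 factors with the letters TGANTCA, and TGCTGA, a core of the element bound by large Maf factors, which drive crystallin genes. The Vim window held TATAAA at bases 219 to 224, found in 12.4% of all 32851 windows of this length, and CCAAT at bases 55 to 59 and, on the other strand, 157 to 161. Bfsp2 held CCAAT at bases 213 to 217, found in 33.8% of windows. It also held TGATTCA at bases 119 to 125, a match to TGANTCA with N as any base, which was found in 6.75%. Bfsp1 held the Maf core alone, on the other strand at bases 64 to 69, found in 16.1% of windows. GGGCGG, found in 32.7% of windows, was in none of the 3. No match overlapped another, and a match of letters is a description and not a binding site. The share of G and C was 58.4% in Vim, 50.8% in Bfsp2 and 46.4% in Bfsp1, against a median of 52.4% over all windows.

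Vim and Bfsp2 had the largest mean ratios of the 7 genes, on opposite sides, and neither passed the test over all features. By limma over 19624 features, with Benjamini-Hochberg adjustment at a threshold of 0.05, 0 of the 7 genes passed, where 1.73% of all features did, 1.36% with a negative and 0.372% with a positive mean. At an unadjusted p under 0.05 there were 2 of 7, Vim and Bfsp2, against 16.2% of all features. One sign on all 6 arrays was shown by 0 of 7, against 9.17% of all features. One sign on at least 5 arrays was shown by Vim, Bfsp2 and Nes, against 31.9% of all features. The median over the 7 genes was 0.21 and that over all features 0.0030.

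Bfsp2, which encodes the partner that joins filensin in the beaded filament, had ratios of 0.415 on array lens249, 0.506 on lens487 and 1.01 on lens493, and of 0.176 on lens250, -0.060 on lens488 and 1.11 on lens455. It lay above 0 on 5 of 6 arrays, highest on lens493 and lens455 and just below 0 on lens488, and arrays of the 2 dye orientations overlapped. Its mean was 0.53 ± 0.46 (SD, n = 6), with a 95% interval of 0.14 to 0.91 from limma and an adjusted p of 0.18. Read as log2 this is a 1.44-fold difference between the zones, and read as log10 a 3.36-fold one. On lens493 and lens455, 99.5% of features each had a lower ratio than Bfsp2.

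Bfsp1, which encodes filensin, the larger beaded filament protein, had -0.047 on array lens249, 0.418 on lens487 and 0.733 on lens493, and -0.443 on lens250, -0.114 on lens488 and 0.734 on lens455. It was above 0 on 3 arrays and below 0 on 3, and again highest on lens493 and lens455. Its mean was 0.21 ± 0.49 (SD, n = 6), with a 95% interval of -0.18 to 0.61 and a limma adjusted p of 0.60. The value on lens250 was one of those that many probes shared there. At the deposited values 0.450 and 0.451 that array had 135 probes, 82 and 53, where each neighbouring value had about 7.82 and 7.91. Nes stood there too. Of the 48 ratios of the 8 probes, 3 were at such values, against 1.13% of all ratios. Without them Bfsp1 had 0.34 and a limma adjusted p of 0.39, and 0 of 7 genes passed, against 1.71% of features.

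**Figure D1:**
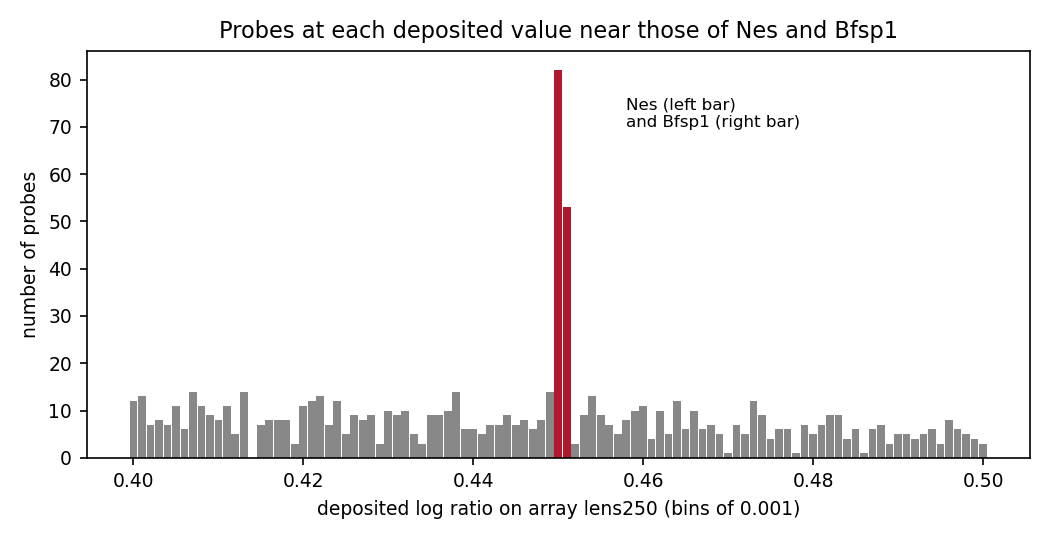
Number of probes (vertical axis) at each deposited log ratio, in steps of 0.001, on array lens250 (horizontal axis, deposited log units, before turning and centring). The bars in red, at 0.450 with Nes and 0.451 with Bfsp1, hold 82 and 53 probes and stand far above the grey bars beside them.

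Vim, whose product is the general filament of epithelium and young fibers, had -1.21 on array lens249, -1.68 on lens487 and -0.667 on lens493, and -0.564 on lens250, -0.854 on lens488 and 0.128 on lens455. It lay below 0 on 5 of 6 arrays, lowest on lens487, and lens455 alone was above 0. The mean was -0.81 ± 0.61 (SD, n = 6), with a 95% interval of -1.20 to -0.41 and a limma adjusted p of 0.070. Read as log2 the size is 1.75-fold, and as log10 6.41-fold. Of all features, 0.749% had a lower mean. On lens487 only 0.10% of features had a lower ratio, while on lens455 67.4% did.

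The call for Vim depended on how arrays were weighted. With array weights estimated by limma, which gave lens487 2.35 and lens455 0.619, Vim passed at -0.97 with an adjusted p of 0.028, in a fit where 3.34% of features passed. In the other 16 settings it did not pass, also not without a dye term, where 2.26% of features did. Arrays with mature fibers in channel 1 had a mean of -1.18 and those with elongating fibers in channel 1 -0.43, and the dye effect of Vim was -0.38 with a limma adjusted p of 0.41.

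**Figure D2:**
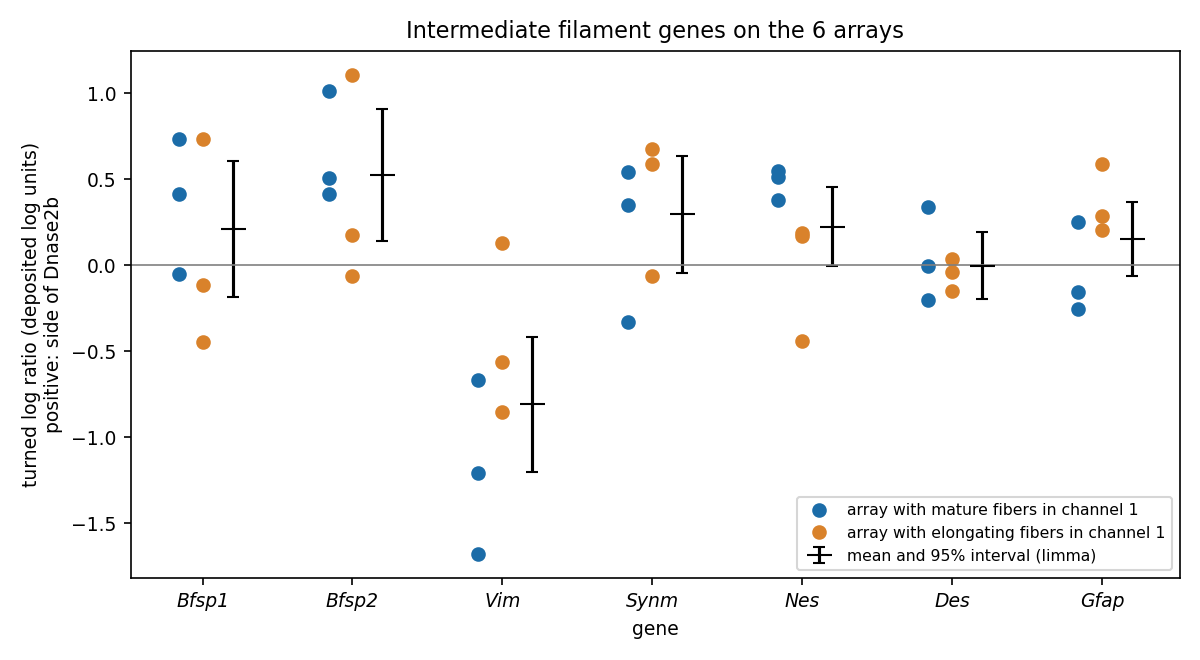
Turned log ratio (vertical axis, deposited log units, positive on the side of Dnase2b) of each of the 7 genes (horizontal axis) on each array, in blue for mature and orange for elongating fibers in channel 1. Black bars are means with 95% intervals from limma: those of Bfsp2 (0.14 to 0.91) and Vim (-1.20 to -0.41) do not reach 0, and the other 5 do.

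Within each array the 3 lens genes stood in one order: Bfsp2 highest, then Bfsp1, then Vim, on 6 of 6 arrays. The difference between 2 genes on the same array does not depend on the centring. Bfsp2 minus Vim was 1.62 on array lens249, 2.18 on lens487, 1.68 on lens493, 0.740 on lens250, 0.794 on lens488 and 0.981 on lens455. The 3 arrays with mature fibers in channel 1 all had larger differences than the other 3, and every difference was positive. The mean was 1.33 ± 0.58 (SD, n = 6; exact two-sided sign-flip permutation test p = 0.03125, the smallest that 6 arrays allow, and 0.03125 adjusted over 3 pairs of genes). All 3 pairs had this smallest p, so the adjustment could not change it. Bfsp2 and Vim had the highest and lowest means of the filament genes described here. They were chosen with results of these arrays known, so this p-value is not independent evidence of a difference between them. Read as log2, the zone ratios of the 2 genes differed 2.52-fold, and read as log10 21.6-fold.

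Bfsp1 minus Vim was also positive on 6 of 6 arrays, from 0.121 on lens250, where Bfsp1 was at the shared value, to 2.10 on lens487, with a mean of 1.02 ± 0.69 (SD, n = 6; exact p = 0.03125, adjusted 0.03125). Bfsp1 minus Bfsp2 was negative on 6 of 6, from -0.619 on lens250 to -0.054 on lens488, with a mean of -0.31 ± 0.22 (SD, n = 6; exact p = 0.03125, adjusted 0.03125). On lens487 and lens488 the beaded filament genes lay within 0.088 and 0.054 of each other, and both were far from Vim. Without lens250 the means were 1.20 and -0.25, with the same sign on the 5 arrays left, where the smallest exact p is 0.0625. The 3 genes and pairs were chosen with results of these arrays known, so these p-values are not independent evidence of the order. The 3 differences are also not separate results, since each follows from the others. How often other genes keep one order on all arrays was not counted.

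**Figure D3:**
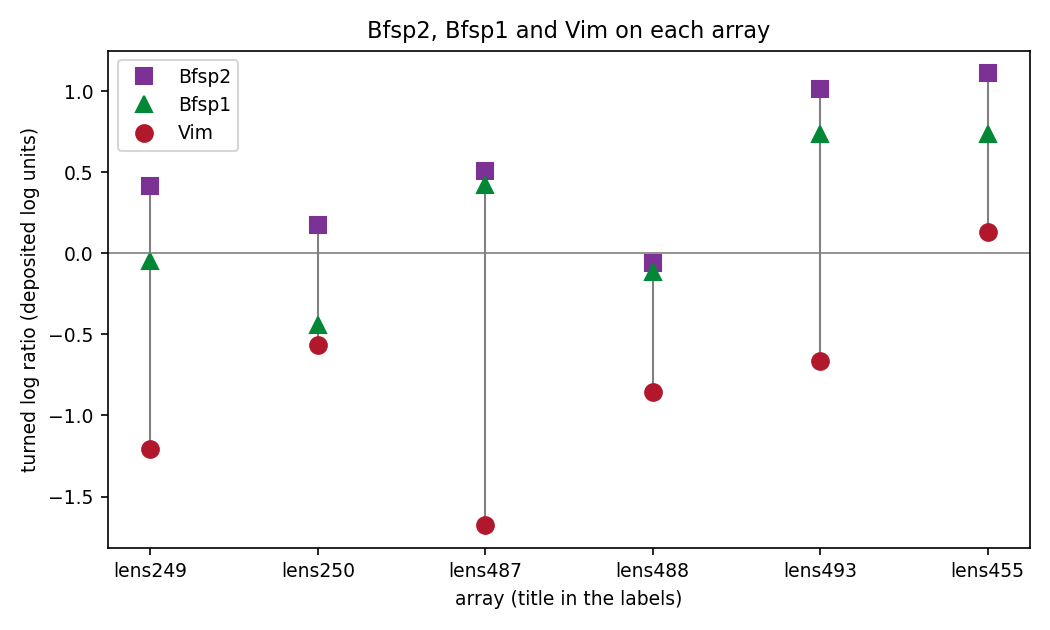
Turned log ratio (vertical axis, deposited log units) of Bfsp2 (squares), Bfsp1 (triangles) and Vim (circles) on each of the 6 arrays (horizontal axis, by title). A grey line joins the genes of 1 array; Bfsp2 is highest and Vim lowest on each array, 2.18 apart on lens487 and 0.740 apart on lens250.

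Arrays lens249 and lens250, and arrays lens487 and lens488, have neighbouring title numbers. Arrays lens455 and lens493 do not, and were paired as the arrays left over. If the arrays of each pair share RNA, there are 3 replicates. Turned ratios correlated across features at r = 0.61 between lens487 and lens488, 0.45 between lens493 and lens455 and 0.14 between lens249 and lens250, where features are not independent replicates. Each of these pairs joins arrays of opposite orientation. Other arrays of opposite orientation correlated at 0.038 (lens249 with lens455) to 0.157 (lens250 with lens487). The 0.137 of lens249 with lens250 lay within that range. Arrays of the same orientation correlated at 0.124 (lens250 with lens455) to 0.342 (lens487 with lens493). Whether any arrays share RNA was not tested. Averaged over the 3 pairs named first, Vim had -0.886 for lens249 with lens250, -1.27 for lens487 with lens488 and -0.27 for lens455 with lens493. Bfsp2 had 0.296, 0.223 and 1.06 in the same order, and Bfsp1 -0.245, 0.152 and 0.734. Vim, Bfsp2 and Gfap, 3 of the 7 genes, each had one sign on the 3 pairs, as did 37.6% of all features, and in limma 0 of 19624 features passed on them (2395 at an unadjusted p under 0.05). Bfsp2 minus Vim was 1.18, 1.49 and 1.33, and the smallest exact p that 3 pairs allow is 0.25.

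Synm encodes synemin, a large filament protein that cannot polymerise alone and joins vimentin or desmin filaments. Its 2 probes had the same sign on each array but differed in size, and the difference between them was not tested. Probe 5010 had 0.818 on array lens249, -0.424 on lens487, 0.492 on lens493, 1.23 on lens250, -0.009 on lens488 and 1.13 on lens455. Probe 19877 lay between -0.228 and 0.271 on the 6 arrays. Both were annotated with the same transcript, and both were below 0 on lens487 and lens488 and above 0 on the other 4 arrays. The first had a mean of 0.54 ± 0.65 (limma adjusted p = 0.28) and the second 0.05 ± 0.19 (adjusted p = 0.82). In this fit of 20906 single probes, 0 of the 8 passed, against 1.66% of all. Averaged, Synm had 0.30 ± 0.40 (SD, n = 6), a 95% interval of -0.04 to 0.64 and a limma adjusted p of 0.38.

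Nes encodes nestin, a filament protein of neural progenitors and other immature cells that assembles with vimentin. It had 0.379 on array lens249, 0.513 on lens487 and 0.547 on lens493, and -0.442 on lens250, 0.172 on lens488 and 0.189 on lens455. The 3 arrays with mature fibers in channel 1 were all above the other 3, at a mean of 0.48 against -0.03. The value on lens250 was a shared one, as for Bfsp1. Over all arrays Nes had 0.23 ± 0.36 (SD, n = 6; limma adjusted p = 0.32), with a dye effect of 0.25 (limma adjusted p = 0.35). Without shared values it had 0.33, with a limma adjusted p of 0.088.

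Des encodes desmin, the filament of muscle, and Gfap the glial filament protein of astrocytes, which has also been described in lens epithelium of mice. Des stayed near 0, between -0.198 on array lens249 and 0.338 on lens493, with a mean of -0.0017 ± 0.19 (SD, n = 6; limma adjusted p = 0.99) and a 95% interval of -0.20 to 0.19. Gfap had -0.254 on lens249, -0.153 on lens487 and 0.251 on lens493, and 0.587 on lens250, 0.289 on lens488 and 0.208 on lens455. Its mean was 0.15 ± 0.31 (SD, n = 6; limma adjusted p = 0.47). The value of Gfap on lens488, deposited as -0.275, was shared with 60 other probes, where neighbouring values had about 12.9 each. The dye effect was -0.21 for Gfap and 0.05 for Des, and 0 of 7 genes had a dye effect past the threshold (0 of 19624 features in limma, and 12.6% at an unadjusted p under 0.05, with Nes among them).

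By mean ratio the genes ran from Bfsp2 through Synm, Nes, Bfsp1, Gfap and Des to Vim. Except for Vim, each gene's 95% interval overlapped that of its neighbour in this order. The intervals of Vim and Des did not overlap.

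By likeness over the 6 arrays, measured as the root mean square difference of turned ratios among 16497 other named genes, the nearest to Vim were Fbxl21 (0.186), Eml1 (0.267) and Dlat (0.276). Fbxl21 encodes an F-box protein, Eml1 a microtubule-binding protein and Dlat a subunit of pyruvate dehydrogenase. Their means were -0.91, -0.76 and -0.86, with limma adjusted p of 0.049, 0.034 and 0.036. Means near that of Vim follow from the choice by likeness, and these p-values say nothing about Vim. Nearest to Bfsp2 were the Hsp40 chaperone Dnajb1 (0.205), the autophagy receptor Sqstm1 (0.225) and Alg13 of N-glycosylation (0.23), with limma adjusted p of 0.20, 0.12 and 0.31. Nearest to Bfsp1 were the ubiquitin ligase Uhrf2 (0.165), Zfp747 (0.168) and Blcap (0.18), with limma adjusted p of 0.57, 0.72 and 0.58. Among all 16503 other named genes Bfsp1 ranked 64 by likeness to Bfsp2, and Bfsp2 ranked 524 by likeness to Bfsp1.

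Other intermediate filament genes showed no call. Of 48 keratins, neurofilaments, lamins and related genes listed, 47 were measured and limma called 0, against 1.73% of all features. At an unadjusted p under 0.05 there were 4 positive and 1 negative, against 16.2% of all features. The median of the 47 was 0.04, with 72.3% above 0 against 51.0% of all features. The 38 keratins, filaments of epithelia, lay between -0.23 and 0.28, with 29 above 0. Close relatives among them may cross-hybridise. Lmnb2, which encodes lamin B2 of the nuclear lamina, had the lowest p, at -0.39 ± 0.25 (limma adjusted p = 0.12), and was below 0 on 6 of 6 arrays. It was followed by Krt76 (0.28 ± 0.18, adjusted p = 0.16) and Krt90 (0.19 ± 0.07, adjusted p = 0.18).

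Proteins that link filaments or bind them include plakins, desmosomal plakophilins, small heat shock proteins and, in the lens, the water channel Mip and the actin-capping protein Tmod1. Of 18 listed, 17 were measured and limma called 0, against 1.73% of all features. At an unadjusted p under 0.05 there was 1 on each side, against 16.2% of all features. The median of the 17 was 0.00067. Hspb1, a small heat shock protein that binds filaments under stress, had 0.864 on array lens249, 2.11 on lens487 and 1.02 on lens493, and 0.127 on lens250, 1.80 on lens488 and 0.911 on lens455. It was above 0 on 6 of 6 arrays, at 1.14 ± 0.71 (SD, n = 6; limma adjusted p = 0.077). It passed in 3 other settings: without a dye term (adjusted p = 0.046), with quantile normalization (0.048) and with array weights (0.033). More features passed in these settings, 443, 430 and 656 of all, against 339 in the main fit. The plakin Ppl, periplakin, which binds the beaded filament proteins, had -0.37 ± 0.34 (adjusted p = 0.21), and the plakophilin Pkp2 -0.36 ± 0.42 (adjusted p = 0.31).

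Among kinases, phosphatases and proteases that modify or cut filaments, 15 of 19 were measured and limma called 0, against 1.73% of all features. At an unadjusted p under 0.05 there was 1, against 16.2% of all features. The median of the 15 was -0.015. Ppp2ca, a catalytic subunit of phosphatase 2A, had -0.32 ± 0.25 (adjusted p = 0.14). The protease Capn2, which cleaves vimentin, had -0.27 ± 0.41 (adjusted p = 0.43) and the kinase Prkce -0.23 ± 0.43 (adjusted p = 0.45).

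**Figure D4:**
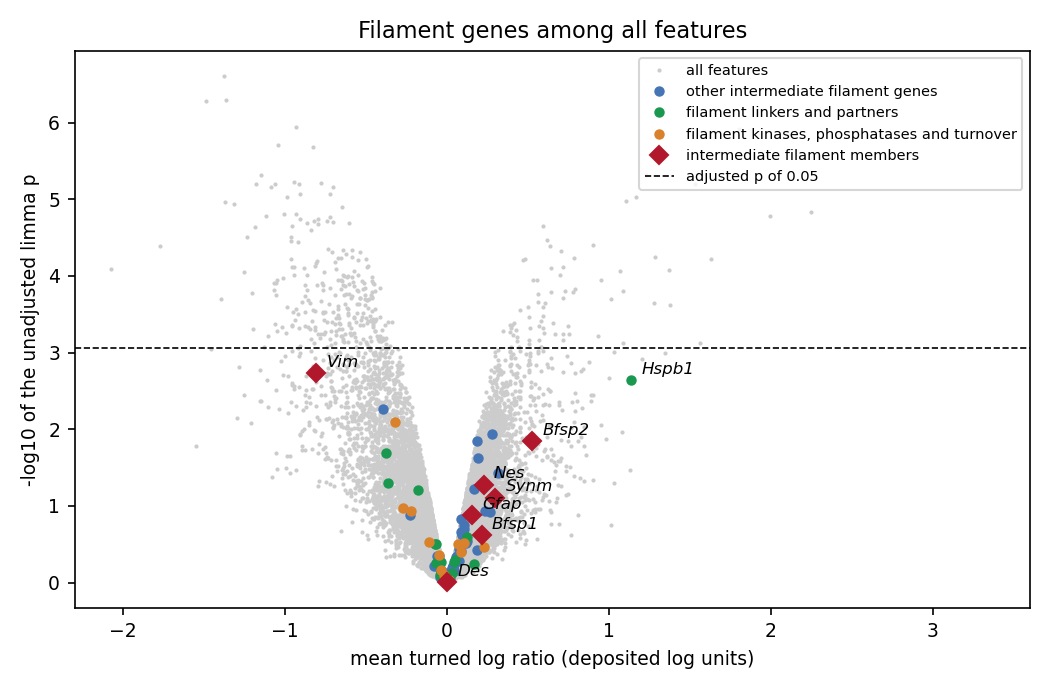
Mean turned log ratio (horizontal axis, deposited log units) against -log10 of the unadjusted limma p (vertical axis) for 19624 features in grey, with the 7 members as red diamonds and the 3 other lists in colour. The dashed line marks an adjusted p of 0.05; Vim (-0.81) and Hspb1 (1.14) lie just under it and no coloured point lies above it.

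Markers of cells that the dissected zones could hold were read beside these values. Of 8 measured lens fiber markers Dnase2b and the klotho relative Lctl (1.28 ± 0.43, limma adjusted p = 0.018) passed on the positive side, and 6 did not pass. The fiber list as a whole did not lie on the positive side, with 4 above and 4 below 0 and a median of 0.0032. Of 12 lens epithelium markers the capsule collagen Col4a1 passed on the negative side (-0.95 ± 0.38, limma adjusted p = 0.030). The list as a whole did not lie on that side, with 6 above and 6 below 0 and a median of 0.0038, and the array means of the list ran from -0.170 to 0.00833. Of 7 astrocyte and retinal glia markers, listed because of Gfap, 0 passed, with array means from -0.114 to 0.377. Of 9 muscle and mural cell markers, listed because of Des, 0 passed, with array means from -0.233 to 0.0842. Among 6 neural markers, listed because of Nes, the RNA-binding protein gene Elavl4 passed (1.57 ± 0.77, limma adjusted p = 0.046), with array means from 0.0574 to 0.530. Of 5 macrophage markers Laptm5 passed (0.35 ± 0.21, limma adjusted p = 0.039), and of 7 endothelium and blood markers 0 passed. At an unadjusted p under 0.05, where 16.2% of all features lay, there were 2 positive fiber, 2 negative epithelium, 2 positive glia and 1 negative muscle markers. There were also 3 positive and 1 negative neural markers, 1 positive macrophage marker and 0 endothelium and blood markers. Past the adjusted threshold the background is the 1.73% given above. The ratios give no levels, so the presence of a cell type cannot be read from them, and the part of other cells in the filament values was not tested.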

How the data were processed

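Log ratios of 2 channels, deposited by the authors for 22575 probes on 6 arrays with 0 missing values, were the starting point. They came with background correction, normalization, log base and numerator not given in the sources used here. Array medians lay between -0.006 and 0.025. The deposited units were kept, and the tests do not depend on the base. Channel intensities were not used here, so a single ratio has no known error, and precision is limited by having 6 arrays.

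Genes were named from the platform annotation: 18218 probes had 1 symbol, 16 several and 4341 none listed, and 18175 matched the RefSeq table of GRCm38.p6 by gene ID. Unlisted probes in sets of 49 or more with identical values, 1032 in all, were dropped, identical rows counted once, signs turned by orientation, arrays centred on their median and probes of a gene averaged, which left 19624 features. Means were tested with limma 3.58.1 (R 4.3.3), two-sided, with a dye term and Benjamini-Hochberg adjustment over all features; it was tested on simulated ratios. Pairs of genes were compared by exact sign flips over arrays. A value counted as shared where its number of probes exceeded the mean of 11 neighbouring values on each side, the adjacent ones left out, by more than 3 plus 5 times the square root of that mean. Errors are SDs over the turned arrays and include the dye effect that the test fits separately. Named genes were the 7 members, the 3 lowest p of each filament list, the 3 genes most like Bfsp1, Bfsp2 and Vim, and marker genes past the threshold. Members, lists, tests and alternatives were chosen with earlier results of these data known. Alternatives were leaving out each array, no dye term, no centring, equal spreads, quantile normalization, array weights, a robust prior, 1 probe per gene, averaged pairs, each orientation alone and, added later, leaving out shared values. Promoters and their coordinates are RefSeq's, and all 7 members had one. Figures were drawn with matplotlib 3.10.9.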

Additional observations from a re-analysis of the deposited data

Results flagged for a closer look

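Of 24 values examined for 1 of 6 arrays lying far from the other 5, 1 was found, and chance gives about 1 in 20, or 1.2. Ppp2ca had -0.795 on array lens488, where the other arrays lay between -0.372 and -0.126. None of the 7 filament genes and none of the 3 differences between Bfsp1, Bfsp2 and Vim had such an array.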

How the results depend on the processing

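Over 17 other settings Bfsp2 stayed between 0.351 and 0.645 and Vim between -1.18 and -0.43, each with its sign kept, and Bfsp1 (0.0447 to 0.368) and Synm (0.128 to 0.54) stayed above 0. Of the 7 genes only Vim passed anywhere, with array weights, where 1 of 7 and 656 of all features passed against 339. Des lay between -0.0746 and 0.0594 with 1 array left out, its sign turned without lens249 (0.0594), lens487 (0.0102) or lens455 (0.0229), and it turned with quantile normalization (0.00469) and with mature fibers in channel 1 alone (0.0463). The sign turned for Gfap with mature fibers in channel 1 alone (-0.052) and for Nes with elongating fibers in channel 1 alone (-0.027). Without 1 array in turn 16 to 117 features passed (16 without lens488), and 0 passed on 3 averaged pairs or in either orientation alone. Among linkers and partners 1 gene, Hspb1, passed without a dye term, with quantile normalization and with array weights. In these settings 443, 430 and 656 of all features passed, against 339 in the main fit. With 1 array left out, Bfsp2 minus Vim was 1.16 to 1.45, Bfsp1 minus Vim 0.806 to 1.20 and Bfsp1 minus Bfsp2 -0.365 to -0.252. On 3 averaged pairs the means are the same by arithmetic (1.33, 1.02 and -0.313), while the number of replicates and the spread change. Bfsp2 minus Vim ran from 1.18 to 1.49 over the pairs, against 0.740 to 2.18 over single arrays. Without the array with the shared value the Bfsp1 differences were 1.20 and -0.252; these designs have too few arrays to reach the threshold (exact p = 0.0625 or 0.25). The causes of the other changes were not tested. No replicate block was fitted, because the labels give the arrays no replicate numbers. Of the pairs above, lens249 with lens250 and lens487 with lens488 have neighbouring title numbers, and lens455 with lens493 were left over.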
